A study of Mus musculus with 6 samples.

Results

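The 7 genes Cd74, H2-Aa, H2-Ab1, H2-Eb1, H2-DMa, H2-Oa and Ciita serve antigen presentation by major histocompatibility complex (MHC) class II molecules. They were read from every probe set to which the platform annotation gives exactly 1 of these symbols, which gave 15 probe sets for 7 genes, out of 45101 probe sets and 18194 named genes in all. Of these, 12 probe sets, with at least 1 for each of the 7 genes, were bright enough to be compared (above the 40th percentile of the array on at least 2 arrays). The genes were selected with their signals on these arrays known, so their values are given as a description, and no test of them is reported.

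The RNA was that of helper (CD4+) T cells of the mouse, which were grown in vitro from spleen, peripheral and mesenteric lymph nodes. There were 3 groups of 2 arrays each, labelled RA, Ro and Control. The series title speaks of retinoic acid, a metabolite of vitamin A, as which RA is read here, while Ro is spelled out nowhere. No dose of RA or Ro is given, and no strain, age or sex for any group, and nothing says whether the 2 arrays of a group came from separate cultures. A culture protocol is given for Control replicate 2 alone: 5 days with TGFb1, TNFa and the interleukins IL1b, IL2, IL6, IL21 and IL23, and with antibodies to IL4 and IFNg. For the other 5 arrays the labels say only that the cells were cultured.

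MHC class II molecules are pairs of an alpha and a beta chain that hold peptides from endosomes on the cell surface, where CD4+ T cells read them. B cells, dendritic cells and macrophages are the cells that usually carry them, and mouse T cells are generally known to make little. The invariant chain, encoded by Cd74, fills the groove of new class II molecules until endosomal proteases remove it, H2-DM then exchanges the remaining fragment for peptide, and H2-O restrains H2-DM. Ciita encodes the coactivator that switches the class II genes on. It does not bind DNA itself but docks on the RFX, CREB and NF-Y factors, which sit on the X and Y boxes shared by class II promoters.

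The promoters of H2-Aa, H2-Eb1 and H2-Oa are shown because they share this arrangement. The signals of H2-Oa, given further on, ran in another order across the groups than those of H2-Aa and H2-Eb1. RefSeq windows of 250 bases before to 50 bases after the start site were at hand for 4 of the 7 genes (GRCm38.p6). The stretches below run 5′ to 3′ on the strand of the gene, and capitals mark GCAAC (part of the X box), CTGATTGG (the Y box with its inverted CCAAT) and, in H2-Aa, TGACGTCA (the letters of a CREB site).
H2-Aa, chr17:34287837-34287934, minus strand: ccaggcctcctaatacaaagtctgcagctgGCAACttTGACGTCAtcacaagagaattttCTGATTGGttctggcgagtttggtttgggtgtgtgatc
H2-Eb1, chr17:34305746-34305842, plus strand: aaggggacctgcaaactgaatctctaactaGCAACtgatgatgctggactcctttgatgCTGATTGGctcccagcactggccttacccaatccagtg
H2-Oa, chr17:34092273-34092370, plus strand: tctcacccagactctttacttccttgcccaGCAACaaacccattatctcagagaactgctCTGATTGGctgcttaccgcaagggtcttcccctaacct
The first base of CTGATTGG lies 51 bases before the start site in H2-Aa, 62 in H2-Eb1 and 46 in H2-Oa, and 24 or 25 bases separate it from GCAAC. On either strand, CTGATTGG was in 4.1% of all 32851 promoter windows, GCAAC in 35.2% and TGACGTCA in 1.79%. GCAAC followed by CTGATTGG in the same orientation with 24 or 25 bases between them was in 5 windows (0.0152%), those of H2-Aa, H2-Eb1, H2-Oa, H2-Eb2 and Stard7. That spacing was read from the first 3 of these, so only H2-Eb2 and Stard7 were found by it. The 2 windows of H2-DMa do not hold CTGATTGG, which says only that these letters are not in those windows.

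One array stands apart. Control replicate 2 correlated with the other 5 arrays at 0.911 to 0.917 across probe sets on the log2 scale, whereas those 5 correlated with each other at 0.961 to 0.972. It had Eif2s3y, a gene of the Y chromosome, at a signal of 0.972, against 747 to 967 on the others, and Xist, the RNA of the inactive X chromosome, at 1145, against 241 on Control replicate 1 and at most 3.48 on the RA and Ro arrays. Cd3d, a chain of the T cell receptor complex, was at 6059 to 7512 over the arrays, which does not separate CD4+ from other T cells. Cd4 was at 463 on Control replicate 2 and at 1141 to 1791 elsewhere. The summed signals of the CD8 T cell and natural killer cell lists, given further on, were highest on Control replicate 2, at 321 and 4601. Log2 differences of the 7 genes against Control are therefore given with and without that array, and counts of groups without overlap with it. Control replicate 1 had Xist at 241 beside Eif2s3y at 855, so it too differed from the RA and Ro arrays. Leaving out Control replicate 2 does not remove that difference, whose part in the comparisons with Control was not tested.

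Signals are MAS5 values in arbitrary units, and each gene is led by 1 probe set. Log2 differences are taken on log2(signal + 3.00) and are relative to the median of all 12986 genes tested, because the arrays differed in general brightness. A p from limma refers to the difference before that median was taken off. The median was -0.24 for RA minus Ro, 0.10 for RA minus Control and 0.32 for Ro minus Control. With 2 arrays in a group, precision is low throughout. In RNA from a cell population, fewer cells of a type and less RNA per cell cannot be told apart.

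Cd74, the invariant chain, had the widest gap between RA and Ro among the leading probe sets of the 7 genes. Its signal was 278 and 369 in RA, 934 and 780 in Ro, and 429 and 671 in Control. Both RA arrays lay below all others and both Ro arrays above all others, with Control between. The mean was 324 ± 64.7 in RA, 857 ± 109 in Ro and 550 ± 171 in Control (SD, n = 2 each), so Ro was 2.65-fold RA. On each array Cd74 lay between the 84.0th and 93.8th percentile of all probe sets. The log2 difference was -1.17 (SE 0.38) for RA minus Ro, and from -1.32 to -0.98 over all the settings tried.

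Against Control the values of Cd74 leaned on the array that stands apart. RA minus Control was -0.84 (SE 0.38) and -0.27 without Control replicate 2. Ro minus Control was 0.35 (SE 0.38) and 0.87 without Control replicate 2, but -0.18 without Control replicate 1. The order RA, Control, Ro thus held in the deposited signals, while the place of Control between the other groups depended on which of its arrays was read.

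**Figure D1:**
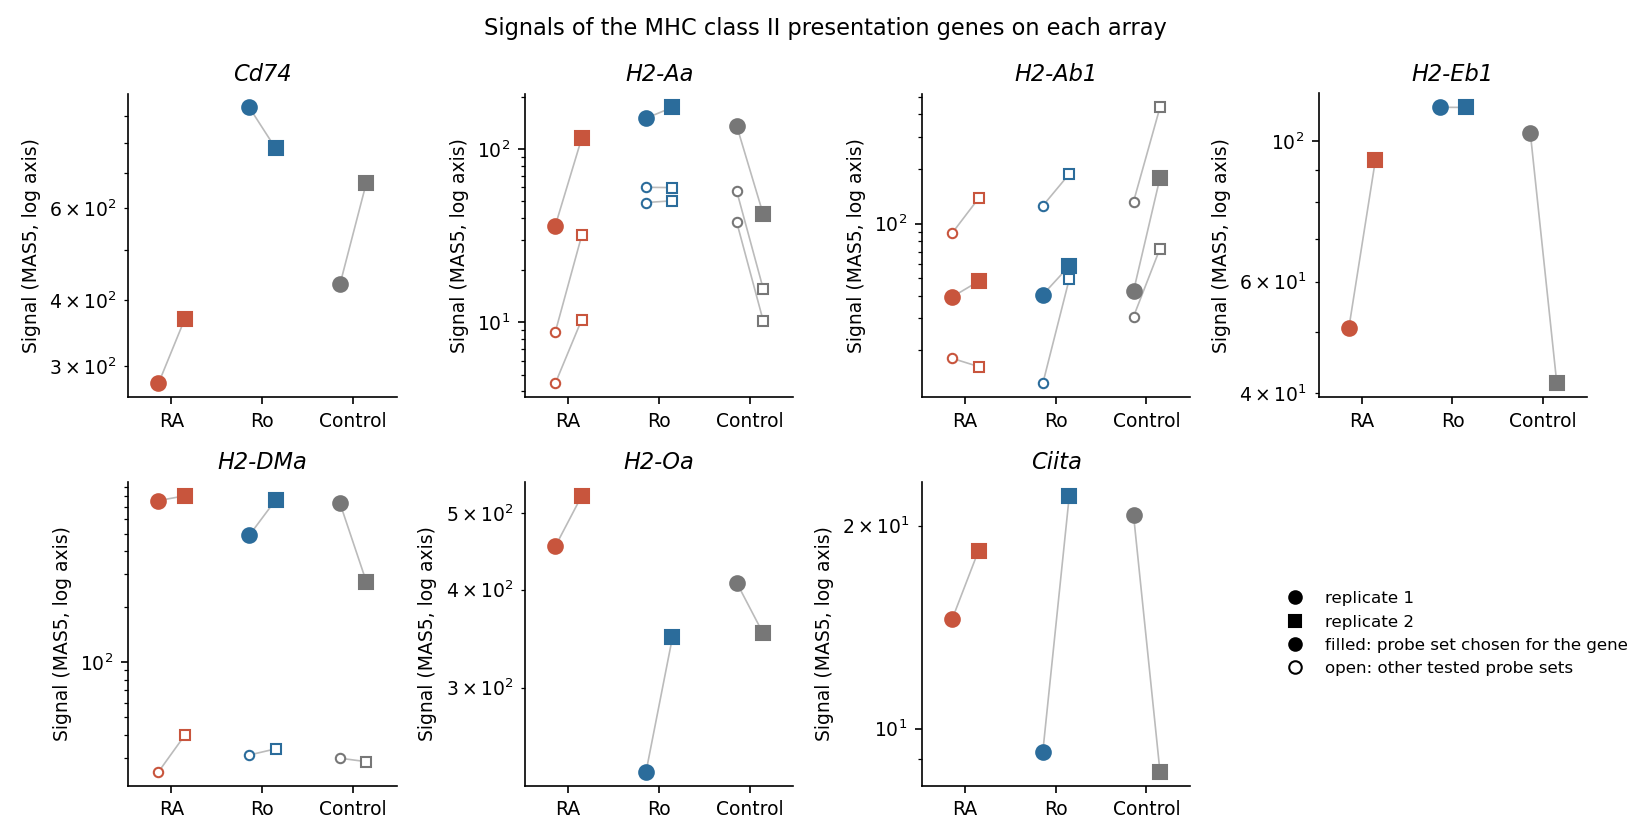
Signal of each tested probe set (log axis, arbitrary MAS5 units) on the RA, Ro and Control arrays, with circles for replicate 1, squares for replicate 2, filled symbols for the probe set that leads the gene and a line joining the 2 arrays of a group. Cd74 at 278 and 369 in RA lies below 934 and 780 in Ro, H2-Oa at 454 and 527 in RA lies above 234 and 348 in Ro, and H2-Ab1 is highest on Control replicate 2.

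H2-Aa encodes the alpha chain of I-A, the class II molecule that all common mouse strains display. Its leading probe set had signals of 36.1 and 116 in RA, 150 and 174 in Ro, and 136 and 42.1 in Control. Ro was high on both arrays, whereas RA replicate 1 and Control replicate 2 were low, and each of those groups had 1 array near the Ro level. The means were 75.9 ± 56.2 in RA, 162 ± 16.6 in Ro and 89.0 ± 66.3 in Control (SD, n = 2 each), so that RA and Control differed by less than their spread. The log2 difference of RA minus Ro was -1.04 (SE 0.70), but -0.31 without RA replicate 1 and -1.76 without RA replicate 2. RA minus Control was -0.32 (SE 0.70), and it was -0.88 without Control replicate 2 and 0.27 without Control replicate 1. Ro minus Control was 0.74 (SE 0.70) and 0.13 without Control replicate 2.

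The 2 other tested probe sets of H2-Aa were also highest on both Ro arrays. Probe set 1438858_x_at had 4.45 and 10.4 in RA, 60.1 and 59.9 in Ro, and 57.1 and 15.6 in Control. Both RA arrays were far below both Ro arrays, with a log2 difference of -2.42 (SE 0.64) for RA minus Ro, although the RA signals were close to the floor. Probe set 1452431_s_at had 8.80 and 31.8 in RA, 49.1 and 50.3 in Ro, and 37.8 and 10.2 in Control, with a log2 difference of -1.14 (SE 0.71). The fourth probe set, 1443783_x_at, was too dim to be tested, with signals from 0.0620 to 5.78. All 4 carry a suffix that marks possible cross-hybridisation with related sequences, so the signals of H2-Aa are less certain than those of Cd74 or H2-Eb1.

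H2-Eb1, the beta chain of the second class II molecule, I-E, followed the pattern of H2-Aa. Its signal was 50.8 and 93.2 in RA, 113 and 113 in Ro, and 103 and 41.5 in Control. Both Ro arrays were again above all others, and RA replicate 1 and Control replicate 2 were again the lowest. The means were 72.0 ± 29.96 in RA, 113 ± 0.0297 in Ro and 72.1 ± 43.3 in Control (SD, n = 2 each), a Ro level 1.57-fold that of RA. The log2 difference of RA minus Ro was -0.45 (SE 0.54), smaller than its SE, and -0.11 without RA replicate 1. RA minus Control was -0.03 (SE 0.54), and it was -0.41 without Control replicate 2 and 0.37 without Control replicate 1. Ro minus Control was 0.44 (SE 0.54) and 0.01 without Control replicate 2.

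H2-Ab1, the beta chain that pairs with the H2-Aa product, did not share the pattern of its partner. Its leading probe set had signals of 39.3 and 48.0 in RA, 40.5 and 58.4 in Ro, and 42.4 and 179 in Control. On 5 arrays it was between 39.3 and 58.4, and Control replicate 2, the array on which H2-Aa and H2-Eb1 were low, was high. The other probe sets gave 88.5 and 138 in RA, 125 and 188 in Ro, and 132 and 438 in Control for 1450648_s_at, and 18.0 and 16.2 in RA, 13.1 and 49.5 in Ro, and 30.7 and 72.8 in Control for 1425477_x_at. All 3 were highest on Control replicate 2.

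RA minus Ro for H2-Ab1 was 0.09 (SE 0.66), and it changed sign without Ro replicate 1 (-0.11) and as the mean of the probe sets of the gene (-0.17), so no direction is given. RA minus Control was -1.07 (SE 0.66) and Ro minus Control -1.13 (SE 0.66). Without Control replicate 2 they were 0.18 and 0.07, so both differences rested on that array.

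H2-Oa, the alpha chain of H2-O, went against Cd74. Its signal was 454 and 527 in RA, 234 and 348 in Ro, and 408 and 352 in Control. Both RA arrays lay above all others and both Ro arrays below all others. The means were 490 ± 51.4 in RA, 291 ± 80.3 in Ro and 380 ± 39.9 in Control (SD, n = 2 each), so RA was 1.68-fold Ro. The log2 difference was 1.01 (SE 0.37) for RA minus Ro, 0.27 (SE 0.37) for RA minus Control and -0.72 (SE 0.37) for Ro minus Control. Without Control replicate 2 the last 2 were 0.40 and -0.63, and H2-Oa kept its sign in all 3 comparisons under each of the alternatives tried.

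H2-DMa, the alpha chain of the peptide exchanger H2-DM, lay between the 86.5th and 93.3rd percentile of the arrays. Its signal was 756 and 803 in RA, 489 and 763 in Ro, and 733 and 273 in Control. RA and Ro overlapped, and Control replicate 2 was the lowest. The means were 780 ± 33.2 in RA, 626 ± 194 in Ro and 503 ± 325 in Control (SD, n = 2 each). RA minus Ro was 0.59 (SE 0.51), and with each array centred on its median gene both RA arrays were above both Ro arrays. RA minus Control was 0.69 (SE 0.51) and 0.23 without Control replicate 2. Ro minus Control was 0.13 (SE 0.51) and -0.38 without that array. A second, dimmer probe set, 1459872_x_at, was lowest on RA replicate 1, at 25.2, and its groups RA and Ro overlapped as deposited. With centred arrays both RA arrays were above both Ro arrays there too, and RA minus Ro was 0.22 (SE 0.42).

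Ciita, the coactivator, was dim. Its leading probe set had signals of 14.5 and 18.4 in RA, 9.24 and 22.1 in Ro, and 20.7 and 8.63 in Control. The 3 groups overlapped fully, at the 37.0th to 50.4th percentile of the arrays, and the means were 16.4 ± 2.72 in RA, 15.7 ± 9.12 in Ro and 14.7 ± 8.55 in Control (SD, n = 2 each). RA minus Ro was 0.38 (SE 0.59) and turned to -0.09 without Ro replicate 1. RA minus Control was 0.12 (SE 0.59) and Ro minus Control -0.24 (SE 0.59), and without Control replicate 2 they were -0.15 and -0.55. The other 2 probe sets of Ciita were too dim to be tested. Probe set 1421211_a_at had 1.48 and 8.5 in RA, 2.03 and 13.2 in Ro, and 8.02 and 3.36 in Control. Probe set 1447075_at had 0.169 and 0.271 in RA, 5.15 and 7.07 in Ro, and 1.13 and 1.13 in Control. In 1447075_at the groups did not overlap, at a level where MAS5 signals are noisy, and the leading probe set did not share that order.

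**Figure D2:**
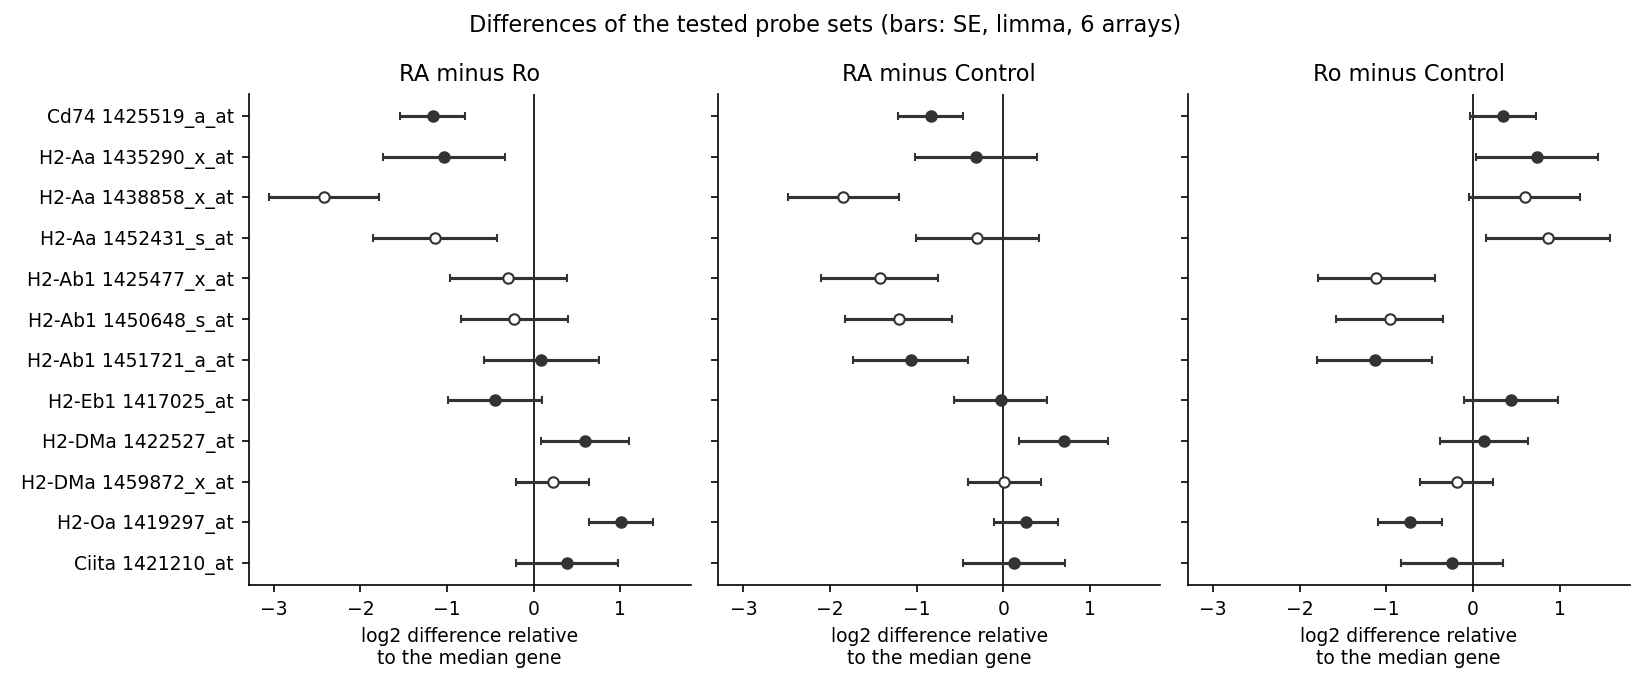
Log2 difference of each tested probe set relative to the median gene (horizontal axis, bars show the SE from limma on 6 arrays) for RA minus Ro, RA minus Control and Ro minus Control, with filled symbols for the probe set that leads the gene. In RA minus Ro, Cd74 (-1.17) and the 3 probe sets of H2-Aa (-2.42 to -1.04) lie left of 0 and H2-Oa (1.01) lies right of it, and the 3 probe sets of H2-Ab1 lie left of 0 in both comparisons with Control.

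The 7 genes had no direction in common. In RA minus Ro, Cd74, H2-Aa and H2-Eb1 lay below the median gene and the other 4 above it, and their median was 0.09. The deposited signals of RA and Ro did not overlap for 3 genes lower in RA and 1 higher, where 37.7% of all tested genes were lower and 6.31% higher in that sense. With each array centred on its median gene, 3 were lower and 2 higher (H2-Oa and H2-DMa), where the shares of all genes were 14.7% and 19.3%. Since the genes were chosen with these values known, nothing is read from those counts.

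In RA minus Control, 3 of the 7 were above the median gene and 4 below, and their median was -0.03 (-0.15 without Control replicate 2). Signals did not overlap for 2 genes higher in RA (H2-DMa and H2-Oa) and 1 lower (Cd74), where 11.7% and 15% of all genes were higher and lower, and centring the arrays left those counts as they were (13.4% and 16.1% of all genes). In Ro minus Control, 4 were above and 3 below, and their median was 0.13 (0.01 without Control replicate 2). Signals did not overlap for 3 genes higher in Ro (Cd74, H2-Aa and H2-Eb1) and 1 lower (H2-Oa), where 30.7% and 8.5% of all genes were higher and lower. With centred arrays only H2-Aa was higher and H2-Oa lower in that sense (13.6% and 22.3% of all genes). The 3 comparisons share arrays in pairs and are not independent of each other.

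The rest of the pathway was followed through 42 further genes in 5 role groups, of which 40 had a probe set with 1 symbol and 38 were tested. Listed genes without such a probe set were not analysed here. The limma fit of all 6 arrays called 0 of the 38 in each comparison at an adjusted p of 0.05, and 0% of the 29507 probe sets tested, of which 496 in RA minus Ro, 535 in RA minus Control and 1201 in Ro minus Control had an unadjusted p under 0.05. Among the 38, at an unadjusted p under 0.05 there were 2 in RA minus Ro, 3 in RA minus Control and 4 in Ro minus Control. Fitted without the Control arrays, RA minus Ro again gave 0 calls among the 38, against 12 of 27878 probe sets (0.043%), and 9 of the 38 were under 0.05 unadjusted, as were 1039 of the 12324 genes in that fit. Values below are therefore given without a direction of change. The pathway lists too were chosen with earlier results of these data known. Nothing is therefore read from the p-values and counts of pathway genes, here or below.

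In RA minus Ro, 24 of the 38 genes were below the median gene and 14 above it, with a median of -0.25 over the list, where the median of all genes is 0 by construction. As deposited, signals did not overlap for 19 genes lower in RA and 3 higher, against the 37.7% and 6.31% of all genes. With centred arrays they did not overlap for 10 lower and 4 higher, against 14.7% and 19.3%. In RA minus Control the list median was 0.03 (-0.07 without Control replicate 2), with 19 genes on either side. In Ro minus Control it was -0.04 (-0.01 without Control replicate 2), with 18 above and 20 below.

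The other class II chains lay above the median gene in RA minus Ro, 3 of 3 tested, though H2-Eb2 by much less than its SE. H2-DMb2, a beta chain of H2-DM, had signals of 117 and 64.2 in RA, 20.7 and 39.3 in Ro, and 60.3 and 38.6 in Control. Both RA arrays were above both Ro arrays, with a log2 difference of 1.74 (SE 0.51, limma unadjusted p = 0.0211 and adjusted p = 0.999). H2-Ob, the partner of H2-Oa, had 79.7 and 119 in RA, 22.6 and 134 in Ro, and 72.4 and 33.6 in Control. RA and Ro overlapped, with a log2 difference of 1.00 (SE 0.80). H2-Eb2 had 7.97 and 26.6 in RA, 20.5 and 14.9 in Ro, and 4.65 and 3.57 in Control. RA and Ro overlapped there too, with a log2 difference of 0.05 (SE 0.61). H2-Ea, the alpha chain of I-E, which several common mouse haplotypes do not make, was too dim to be tested, at 3.50 to 9.39. At that level it was lower in RA (3.50 and 6.02) than in Ro (7.78 and 9.39), with 5.88 and 6.11 in Control.

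The endosomal group holds proteases, some of which cut the invariant chain, with the protease inhibitor Cst3 and the thiol reductase Ifi30. In RA minus Ro, 7 of its 10 genes were below the median gene and Ctsb, Ifi30 and Cst3 above it (0.07, 0.38 and 0.19), with a group median of -0.37 and 0 calls. Ctss, the cathepsin that removes the last part of the invariant chain in antigen-presenting cells, had signals of 1703 and 1864 in RA, 3094 and 3507 in Ro, and 2867 and 1893 in Control. Both RA arrays were below all others, and the log2 difference of RA minus Ro was -0.65 (SE 0.28, limma unadjusted p = 0.0149 and adjusted p = 0.999). Lgmn, an asparagine-specific endopeptidase, had 108 and 127 in RA, 278 and 290 in Ro, and 177 and 52.2 in Control, a log2 difference of -1.02 (SE 0.58). Ctsd had 1803 and 2250 in RA, 3113 and 3141 in Ro, and 2725 and 1021 in Control. RA and Ro did not overlap as deposited, but the log2 difference of -0.40 (SE 0.44) was smaller than its SE in the fit of 6 arrays. Fitted without the Control arrays it was -0.39 (SE 0.17). Ctsb overlapped between all groups, at 1642 to 2129 over the 6 arrays. Ctsl, which serves in place of Ctss in the thymic epithelium, had 144 and 193 in RA, 186 and 350 in Ro, and 350 and 368 in Control.

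The factors of the class II promoter complex sit on the X and Y boxes. In RA minus Ro, 5 of 7 lay above the median gene, with a group median of 0.08. Rfx5, Rfxap and Rfxank, the parts of the RFX complex, gave log2 differences of 0.15, 0.19 and 0.08 (SE 0.37, 0.35 and 0.64), each smaller than its SE. Nfya, a subunit of NF-Y, had 246 and 411 in RA, 576 and 595 in Ro, and 294 and 118 in Control, and RA and Ro did not overlap (log2 difference -0.63, SE 0.52). Creb1, Nfyb and Nfyc gave 0.01, 0.28 and -0.12.

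Genes that act on Ciita, among them those of the interferon gamma route, lay below the median gene for 10 of 12 in RA minus Ro, with a group median of -0.32. Of those below it, only Irf1, Spi1 (-0.56, SE 0.46) and Socs1 differed by more than their SE in the fit of 6 arrays. Fitted without the Control arrays, Irf8 (-0.73, SE 0.50), Prdm1 (-0.52, SE 0.41) and Bcl6 (-0.34, SE 0.31) did so too. Usf1, Jak2 and Irf4 then barely exceeded their SE, and Jak1 (-0.19, SE 0.26) did not. Irf1, a factor that binds the interferon-inducible promoter of Ciita, had signals of 1529 and 2460 in RA, 3120 and 4718 in Ro, and 2266 and 1011 in Control, with a log2 difference of -0.74 (SE 0.45) for RA minus Ro. Socs1, an inhibitor of that route, had 183 and 198 in RA, 350 and 472 in Ro, and 273 and 735 in Control (-0.85, SE 0.52). In both genes RA and Ro did not overlap. The receptor chain gene Ifngr2 stood on the other side, with 203 and 220 in RA, 126 and 160 in Ro, and 273 and 148 in Control (0.80, SE 0.43). Ifngr1 and Jak1 overlapped between RA and Ro. Irf8, a factor of B cells and myeloid cells, was at 80.0 and 194 in RA, 173 and 353 in Ro, and 97.2 and 1872 in Control, the last value again from Control replicate 2.

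Of the genes that turn class II over or bind the Cd74 protein, 5 of 6 tested lay below the median gene in RA minus Ro. Among those below, only Cxcr4 differed by more than its SE in the fit of 6 arrays (-0.55, SE 0.50). With centred arrays its RA and Ro values overlapped. Fitted without the Control arrays, Cd83 (-0.57, SE 0.39) and Cd44 (-0.37, SE 0.28) also differed by more than their SE. Mif, the cytokine whose receptor contains the Cd74 protein, was bright, with 4095 and 4056 in RA, 3373 and 3913 in Ro, and 3660 and 8547 in Control. RA and Ro did not overlap. The log2 difference of 0.40 was close to its SE of 0.38 in the fit that includes Control replicate 2, the high array. Fitted without the Control arrays, RA minus Ro was 0.41 (SE 0.14). Cd44, the signalling partner of the Cd74 protein, had 362 and 424 in RA, 619 and 491 in Ro, and 335 and 807 in Control. Cxcr4, a chemokine receptor that pairs with the Cd74 protein, had 319 and 233 in RA, 664 and 338 in Ro, and 267 and 520 in Control. Marchf8, one of the ubiquitin ligases of this family, was at 13.4 to 48.7, and Marchf1, which removes class II from the surface of B cells and dendritic cells, was too dim to be tested, at 1.13 to 9.10.

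**Figure D3:**
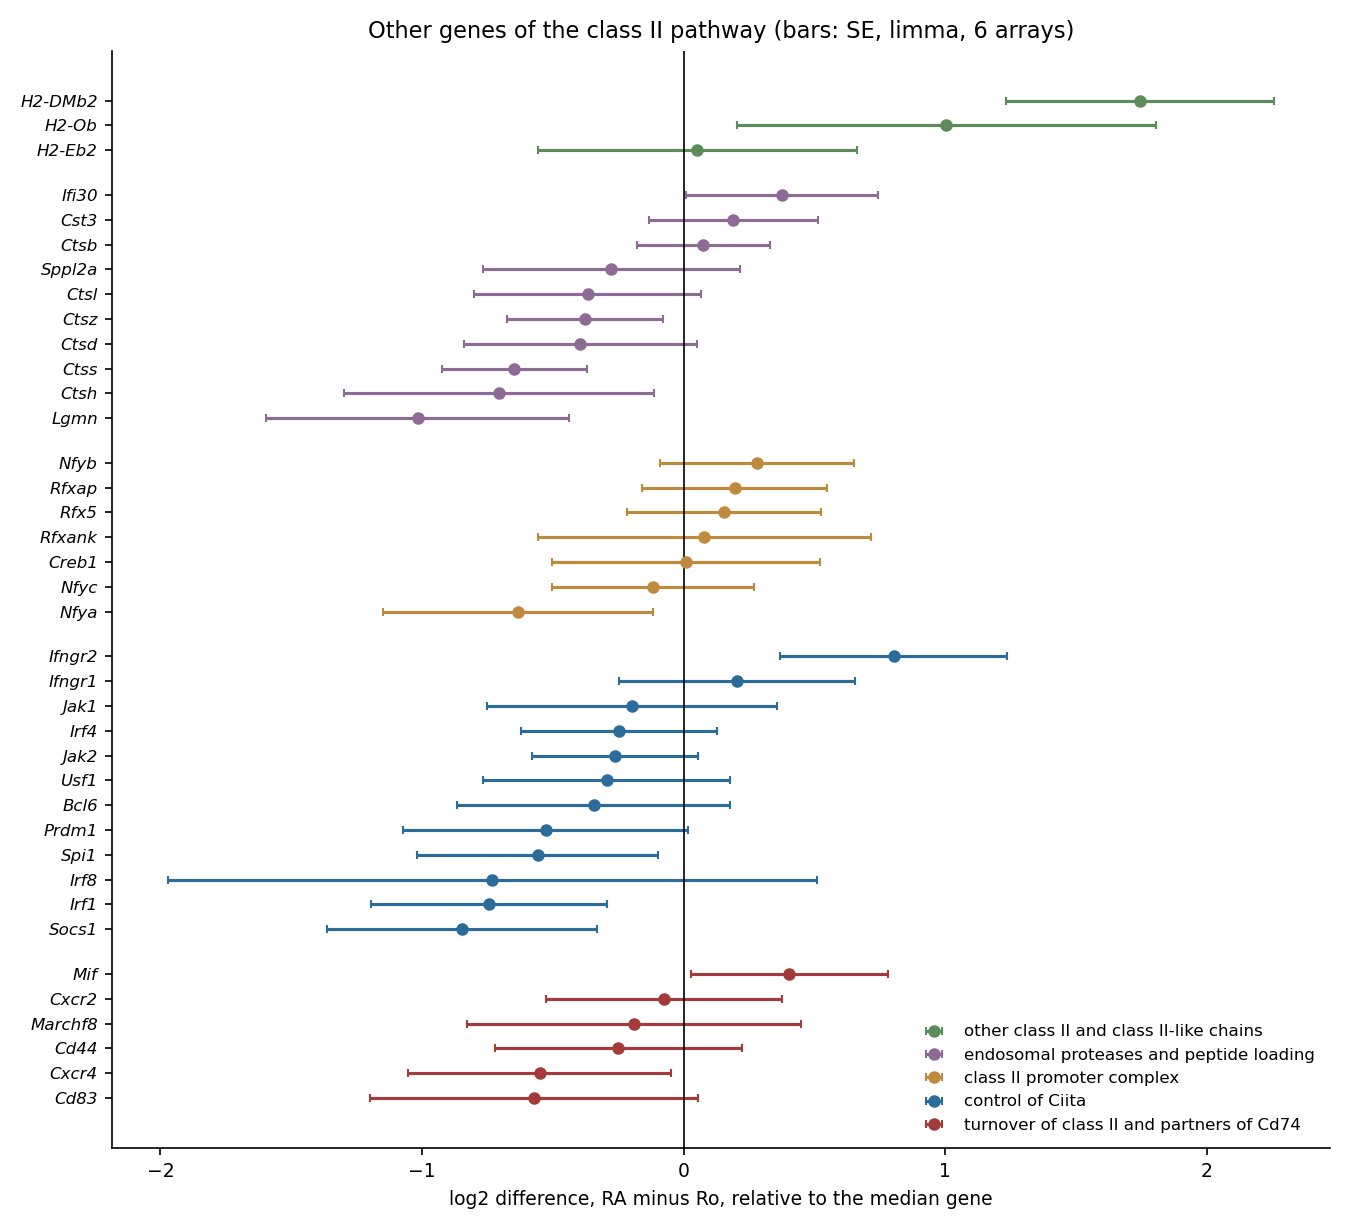
Log2 difference of RA minus Ro relative to the median gene (horizontal axis, bars show the SE from limma on 6 arrays) for the 38 tested pathway genes, coloured by role and ordered by size within a role. H2-DMb2 (1.74) lies farthest right and Lgmn (-1.02) farthest left. Of the genes that act on Ciita, 10 of 12 lie left of 0, most of them by less than their SE. That SE also holds the spread of the Control arrays.

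Markers of the cells that usually carry class II were measured beside these genes. Of 17 B cell markers, 16 had a probe set and 13 were tested. Their summed signal was 413 and 645 in RA, 623 and 835 in Ro, and 491 and 455 in Control, so RA and Ro overlapped in it. Pou2af1, a coactivator that activated T cells also use, had 187 and 295 in RA, 345 and 385 in Ro, and 224 and 74.5 in Control. Defining B cell genes were dim: Cd79a was at 1.25 to 18.6, Ms4a1 (CD20) at 1.22 to 37.9 and Pax5 at 2.33 to 25.0. Cd79b was at 52.5 and 39.3 in RA, 22.6 and 31.0 in Ro, and 35.9 and 84.5 in Control.

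The dendritic cell list (12 of 13 with a probe set) summed to 365 and 629 in RA, 502 and 1004 in Ro, and 673 and 928 in Control, and its defining genes Itgax, Flt3 and Zbtb46 were at 8.44 to 30.1. The macrophage and monocyte list (13 genes) summed to 893 and 831 in RA, 2039 and 616 in Ro, and 3224 and 188 in Control, most of it from Lyz1 and Lyz2 except on Control replicate 2, where they were at 0.542 and 9.57. C1qa was at 0.476 to 2.23.

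The RA and Ro sums of the mast cell and basophil list did not overlap. Its 8 measured genes summed to 1603 and 1369 in RA, 5961 and 3825 in Ro, and 3914 and 163 in Control, and each of the 8 was lower on both arrays of RA than on either of Ro, as were 37.7% of all genes. With centred arrays this held for 7 of the 8, against 14.7% of all genes. The marker lists were chosen with earlier results of these data known, so nothing is read from those counts. Cpa3, a mast cell carboxypeptidase, had 370 and 382 in RA, 1711 and 1410 in Ro, and 914 and 15.6 in Control. The natural killer cell list (3 genes) summed to 640 and 817 in RA, 2441 and 1052 in Ro, and 583 and 4601 in Control, and the CD8 T cell list (2 genes) to 58.9 and 93.1 in RA, 139 and 187 in Ro, and 135 and 321 in Control. The RA and Ro sums of both these lists did not overlap either. Nor did those of the T cell list given below, as long as Cd2 was in it. All were lower in RA, as was the median gene in the deposited signals that were summed. The part of mast cells, basophils and the cells of the other lists in the values of the class II genes was not tested.

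**Figure D4:**
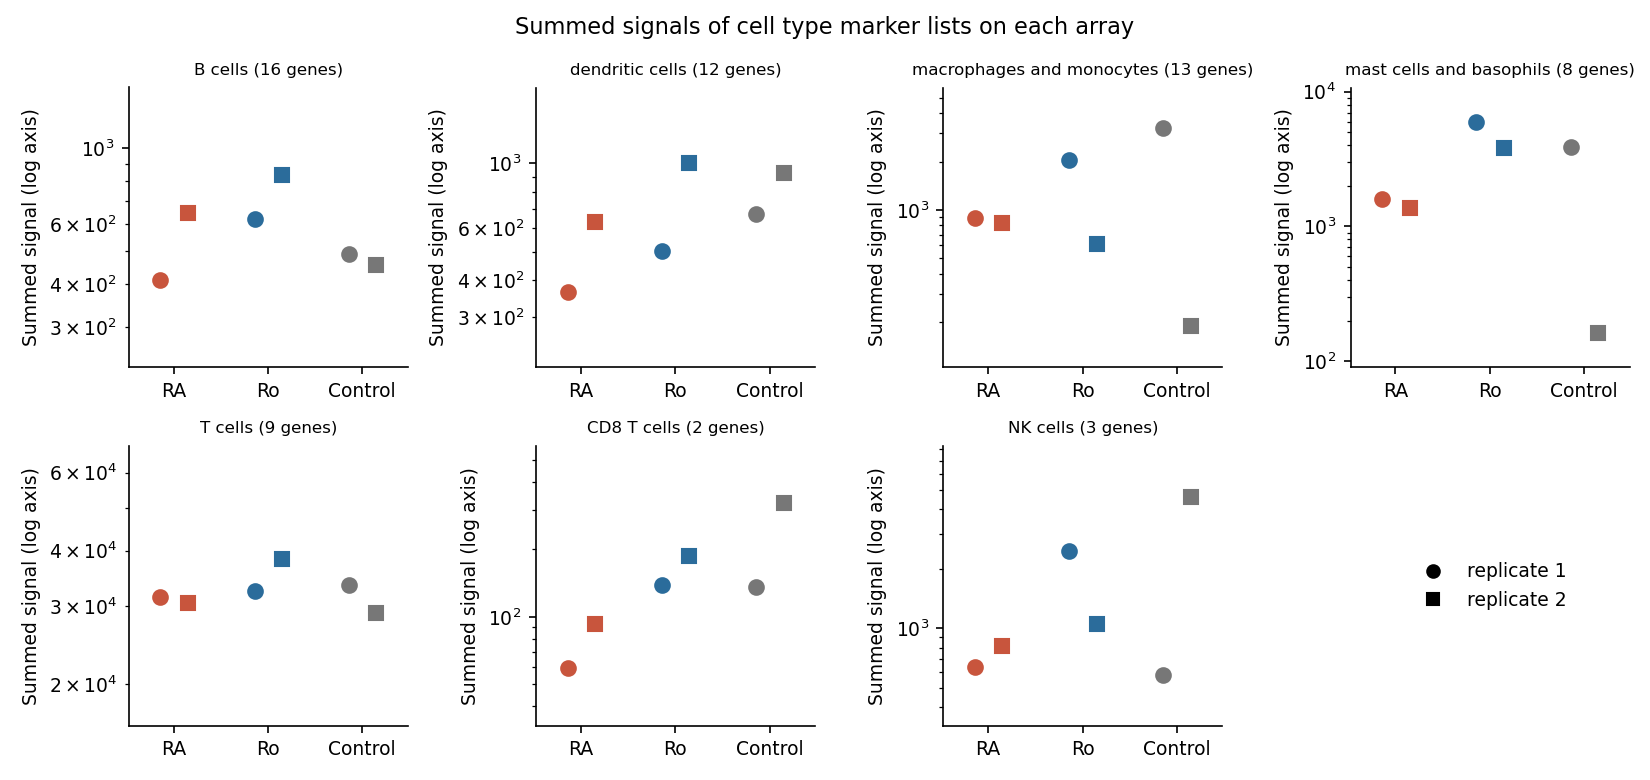
Summed signal (log axis, arbitrary MAS5 units) of each list of cell type markers on the RA, Ro and Control arrays, with circles for replicate 1 and squares for replicate 2. The mast cell and basophil sum is 1603 and 1369 in RA, 5961 and 3825 in Ro, and 3914 and 163 in Control, whereas the RA and Ro sums of B cell markers overlap. The RA and Ro sums of the natural killer cell and CD8 T cell lists do not overlap either. Those of the T cell list do not overlap as shown, with Cd2 in the list, and overlap without it.

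One T cell marker has values that call for care. Cd2, an adhesion receptor of T cells, was deposited at 3703 and 3695 in RA, 4998 and 5000 in Ro, and 4347 and 4348 in Control. It was the only 1 of the 45101 probe sets whose replicates lay within 0.2% of their mean in all 3 groups, whereas the median gap of the 12279 probe sets with every group mean above 100 was 17.6% in RA, 20.5% in Ro and 50.3% in Control. Its Control mean of 4347 was also close to 4349, the midpoint of its RA and Ro means. The values are those of the deposited table, and their cause was not tested. The T cell list (9 genes) summed to 31445 and 30404 in RA, 32407 and 38303 in Ro, and 33422 and 28960 in Control, and without Cd2 to 27742 and 26708 in RA, 27409 and 33304 in Ro, and 29076 and 24612 in Control. The RA and Ro sums thus did not overlap with Cd2 in the list, and overlapped without it. Cd2 enters no signal or difference of the class II genes, and is 1 of the 29507 probe sets that share the fit.

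The genes most like the class II members in pattern were found by the correlation with their mean profile. The profile is the mean of the centred log2 values of the 7 genes, and it ran only from -0.39 on RA replicate 1 to 0.38 on Ro replicate 2, because the members differ among themselves. Over the 6 arrays and 8537 genes with a range of at least 1 log2 unit, the 5 most alike were Cemip, Mga, Phxr4, Fscn1 and Pnpla6, with Pearson r from 0.989 to 0.998. Fscn1, an actin-bundling protein, is also on the dendritic cell list. Mga, a transcription factor of the Max network, had signals of 162 and 329 in RA, 301 and 543 in Ro, and 349 and 180 in Control. Over the 5 arrays without Control replicate 2 (4877 genes) the 5 were Akap8, 9330151L19Rik, Syt11, Cemip and 4932438A13Rik, with r from 0.997 to 0.999. Only Cemip was in both sets of 5. The correlations share 6 arrays and their general brightness.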

How the data were processed

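The 6 arrays were put into the groups RA, Ro and Control (2 each) by title, taking RO as Ro. Deposited were linear intensity values of probe sets, for which the submitters' processing notes name MAS5 without a version. No scaling target is stated, and array medians ran from 16.3 to 23.8. Genes were named from the platform annotation (34958 probe sets with 1 symbol, 932 with several, 9211 with none), and 64 control probe sets were left out. Since no label calls replicates separate cultures, p-values cover only the spread of these arrays, which may be technical.

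Differences were fitted in R 4.3.3 with limma 3.58.1 (lmFit, eBayes with an intensity trend, two-sided, Benjamini-Hochberg over 29507 probe sets) on log2(signal + 3.00), the pseudocount being the 20th percentile of all values. The 6 arrays shared 1 fit (3 residual degrees of freedom). A p tests the difference before the median gene is subtracted. The fit was tested on simulated data. A gene was led by its brightest tested probe set not marked as cross-hybridising (suffix _x_at or _s_at), or the brightest where all were marked. Named were all 7 members, in each pathway group up to 3 genes with the highest mean signal and up to 2 with the largest difference, in each marker list up to 4 with the highest signal, and the 5 genes most alike in pattern. Ifngr2, Rfx5, Rfxap, Marchf1, H2-Ea, Stard7, Cd2 and the dim markers were named after their values were seen. So were Spi1, Ifi30, Cst3, Prdm1, Bcl6, Usf1, Jak2, Irf4 and Cd83. Members and lists were chosen with earlier results of these data known, and so were the promoter motifs, after the sequences were read.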

Additional observations from a re-analysis of the deposited data

How the results depend on the processing

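Tried were other pseudocounts (1, the median value), quantile normalization, a filter at the 60th percentile or none, a fit without the intensity trend, replicate as a block, fits of the 4 arrays compared, gene means, and leaving out each array. Centred arrays, the 4-array fit with a block and the T cell sum without Cd2 were added after seeing the data. Probe sets called were 0 in each comparison as reported. For RA minus Ro there were 12 with the 4 arrays compared, 0 to 12 without 1 array (12 without either Control array), and 1773 by a 2-fold difference without overlap and with no test. For RA minus Control and Ro minus Control that criterion gave 2136 and 2915, and leaving out 1 array gave 0 to 4372 and 0 to 7211, the highest without Control replicate 1, where Control replicate 2 stands alone and is assumed to vary like the other groups. Of the other pathway genes 0 were called as reported, 0 to 11 in RA minus Control and 0 to 15 in Ro minus Control without 1 array, the highest again without Control replicate 1, and 0 to 0 in RA minus Ro.

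With the replicate block on all 6 arrays 0 probe sets and 0 pathway genes were called in each comparison. With the replicate block on the 4 arrays compared there were 106, 56 and 93 probe sets for RA minus Ro, RA minus Control and Ro minus Control, and 1 pathway gene, Irf1 (limma adjusted p = 0.0345, RA minus Ro -0.74), against 0 without it. Deviations of same-numbered arrays correlated at 0.249 for RA and Ro, 0.00477 for RA and Control and -0.0290 for Ro and Control, and the labels give the numbers no meaning, so no pairing was assumed.

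The list median of the 7 genes ran from -0.17 to 0.31 in RA minus Ro, -0.37 to 0.28 in RA minus Control and -0.17 to 0.24 in Ro minus Control, within the replicate spread (0.48 to 0.68) but on both sides of 0. That of the other pathway genes ran from -0.30 to -0.14, -0.12 to 0.20 and -0.13 to 0.11. In RA minus Ro, Cd74, H2-Aa, H2-Eb1, H2-DMa and H2-Oa kept their sign under every alternative tried, and H2-Ab1 and Ciita did not. The cause of these shifts was not tested. Dim signals (Ciita, the second H2-Aa probe set in RA) limit the size of their differences.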
